A study of Mus musculus with 8 samples.

Results

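Endotoxemia is the state that follows the entry of bacterial lipopolysaccharide (LPS) into the blood, and the liver is one of the organs that fails in it. The livers of endotoxemic mice were compared here with those of saline-injected control mice across all genes, with attention to the functions of the liver rather than to cytokines, NF-κB and Wnt signaling. The comparison rests on 4 of the 6 distinct libraries of the series, 2 from endotoxemic and 2 from control mice. All of these mice were C57BL/6 animals labelled as 4-week-old males. Endotoxemic mice received 25 mg/kg LPS of *Klebsiella pneumoniae* by intraperitoneal injection, and control mice received saline. Livers were collected 6 h after the LPS injection. The treatment protocol in the labels calls the LPS-injected mice "Control" and the saline-injected mice "Normal", while the sample titles begin with "LPS" and "Normal". The names used by the study are kept here. Of 4 deposited endotoxemic libraries, the third and the fourth held the same counts as the first and the second on all 23282 rows and were not counted again. The sources do not state that each library came from a separate mouse, so the p-values measure only the spread between these libraries, which may be technical. The remaining 2 libraries, from mice given LPS and the porcupine inhibitor LGK974, entered the fit with them, and so the choice of rows tested, the scaling and the estimate of that spread, but no contrast.

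Before any comparison, the symbols were checked against the positions of the genes, because the rows follow the order of the genome. On 579 rows the symbol lay more than 2 Mb away from the neighbouring genes, and these rows were left out. On these rows the levels of control and endotoxemic libraries had a rank correlation of 0.326 across rows, against 0.931 on the other placed rows. The endotoxemic and LGK974 libraries had one of 0.966 on these rows, and the control and LGK974 libraries one of 0.335. Among the symbols lost in this way are many genes of the acute-phase response, complement, coagulation and inflammasomes. Total counts were 9142116 and 9158958 in the endotoxemic and 11046257 and 15222439 in the control libraries. The rows left out held 14.18% and 14.27% of the endotoxemic counts but 5.93% and 5.85% of the control counts. Xist, the RNA that coats the inactive X chromosome of females, had 1444 and 3115 counts in the control and 1171 and 1884 in the endotoxemic libraries, although the mice are labelled male. The Y-linked genes *Kdm5d*, *Eif2s3y* and *Ddx3y* had 0 counts in all 4 libraries, which allows up to 3 counts in each. The tissue label was met by hepatocyte transcripts in every library. *Alb* was at 95024 and 58792 CPM in control and 44028 and 25638 CPM in endotoxemic libraries. CPM are counts scaled with TMM factors to a total of 1000000 over the rows kept. Scaling by library totals, an alternative used later, takes the same totals of the rows kept without these factors.

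Hepatocytes make most plasma proteins, keep blood glucose up during fasting, turn ammonia into urea, clear drugs and hormones and secrete bile. They share the organ with Kupffer cells, which are resident macrophages, with sinusoidal endothelial cells and with vitamin A-storing stellate cells. In the acute-phase response, cytokines redirect hepatocytes toward defence proteins, while interferons induce antiviral and antigen-presenting genes in nearly all cells. In RNA from whole liver, fewer cells of a type and less RNA per cell cannot be told apart.

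Of 12275 rows with enough counts for a test, 2456 were higher in endotoxemic than in control livers and 2724 were lower at an adjusted p under 0.05 in edgeR's quasi-likelihood test. These are 20.0% and 22.2% of all rows tested, 42.2% in all, and they are the background for every list described here. The median log2 fold change over all rows was 0.03, with the 10th and 90th percentiles at −1.98 and 1.68. Both endotoxemic libraries lay above both control libraries on 38.3% of all rows tested and below both on 38.4%. A lack of overlap between the groups was therefore common and says little by itself. With 1 endotoxemic or control library left out at a time, 1355 to 1529 genes were higher and 1737 to 1839 were lower. The plot of mean levels shows calls over the whole range of expression.

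**Figure D1:**
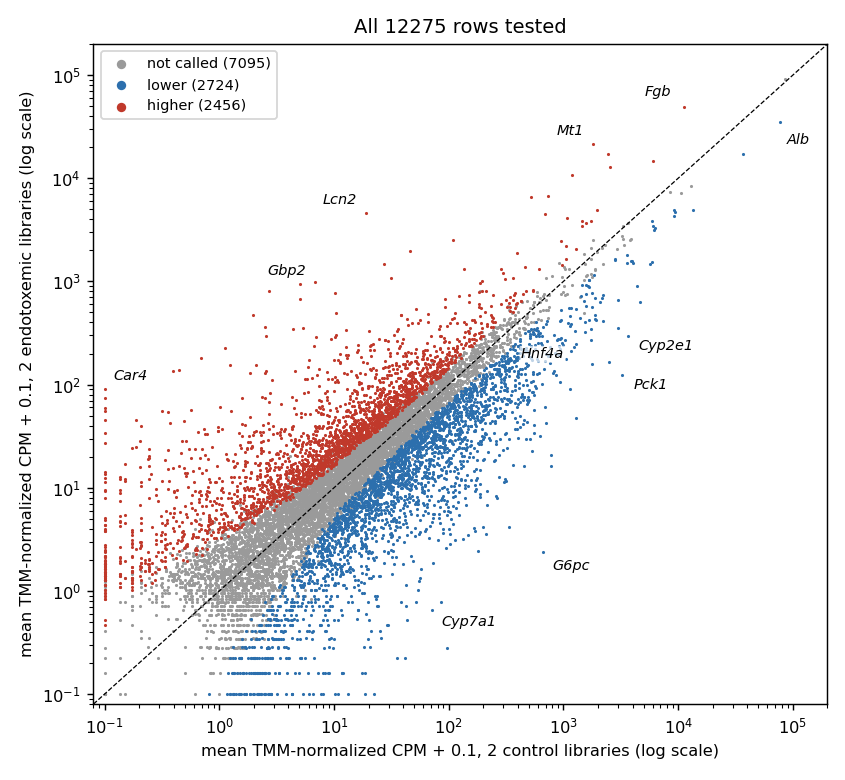
Mean TMM-normalized CPM of each tested row in the 2 control libraries (x axis) against the 2 endotoxemic libraries (y axis), each with 0.1 added so that rows at 0 can be drawn, on log scales with the line of equal levels dashed. Red points were higher (2456) and blue points lower (2724) at an adjusted p under 0.05, and the named genes include *Alb*, *G6pc* and *Cyp7a1* below the line and *Fgb*, *Mt1*, *Lcn2*, *Gbp2* and *Car4* above it.

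The genes of 34 functional lists are shown in the plot of list members. Many lists of hepatocyte function lay to the left, with medians from −1.96 for carriers and cytochromes P450 to −0.98 for apolipoproteins. Cholesterol synthesis and uptake, at −0.34, and glycolysis, at 0.08, lay nearer to the middle. Acute-phase proteins, endothelial activation genes and both interferon lists lay to the right, with medians between 2.32 and 2.61. Oxidative phosphorylation subunits, cytosolic ribosomal proteins and proteasome subunits had medians of −0.47, 0.31 and 0.30.

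**Figure D2:**
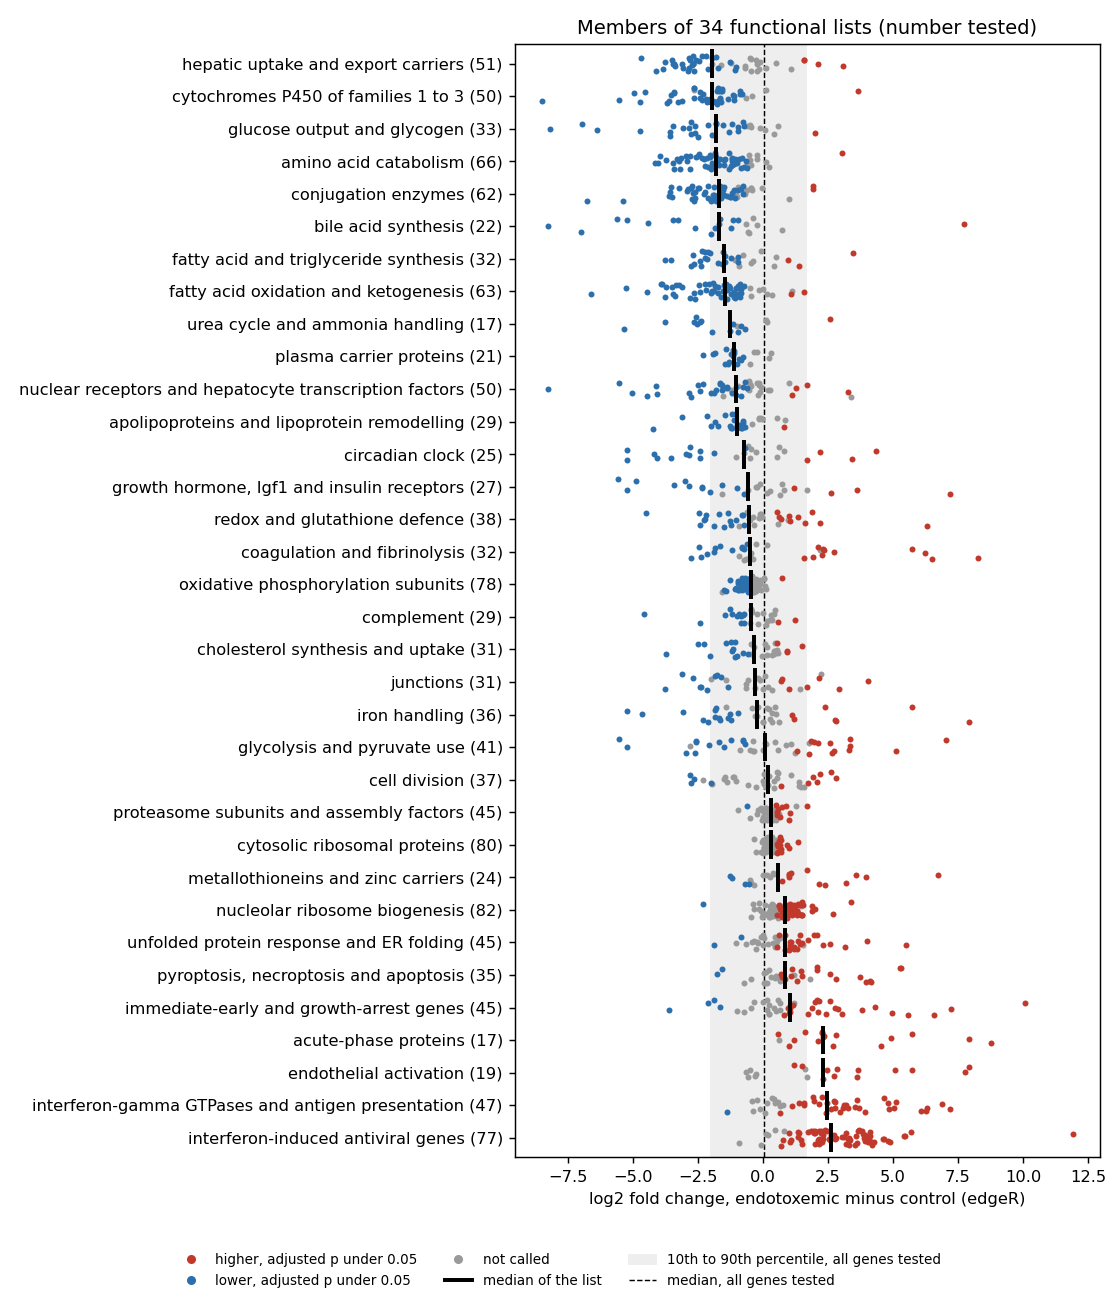
Log2 fold change (endotoxemic minus control) of each tested member of 34 functional lists, ordered by their median, with the number of members tested in brackets. Red and blue points passed the test, black bars are list medians, the dashed line is the median of all rows tested (0.03) and the grey band runs from their 10th to their 90th percentile. Points far from 0 whose gene had no counts in a group depend on the fit and are not measured folds.

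By fitted fold change, the 10 largest rises were of transcripts with 0 counts in both control libraries, for which only a lower bound can be given, against 3 counts per library. *Car4*, a membrane-bound carbonic anhydrase (chr11:84957786-84966044, GRCm38), had 851 and 633 counts in the endotoxemic libraries and was at least 344-fold higher. *Irg1*, the itaconate-producing enzyme of activated macrophages, was at least 282-fold higher with 559 and 660 counts. *Npy*, which encodes neuropeptide Y, was at least 225-fold higher with 464 and 510 counts. *Fgf23*, a hormone that lowers blood phosphate and is known mainly from bone, was at least 209-fold higher with 400 and 503 counts (chr6:127072902-127081408). All 4 genes were thus not detected at this depth in control livers and had many counts in both endotoxemic livers. Others of the 10 largest rises were the lectin receptor *Clec4e*, the neutrophil granule gene *Ngp*, the growth factor *Csf3*, the cytokine *Ifng*, the phosphatase *Dusp8* and the interferon-induced *Slfn4*.

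By fitted fold change, 9 of the 10 largest falls were of transcripts with 0 counts in both endotoxemic libraries. The fitted order of such transcripts is not measured, and their bounds, from 16.0-fold for *Tek* to 60.05-fold for *Hsd3b2*, lie below measured falls such as the 292-fold fall of *G6pc*. *Hsd3b2*, a steroid-converting dehydrogenase, had 258 and 239 counts in control livers. *Cd300lg*, a receptor of capillary endothelium, was at least 50.8-fold lower with 161 and 284 counts in control livers. *Krt23*, a keratin, was at least 35.9-fold lower. *Tek* is the angiopoietin receptor of endothelium. Of the same genes, *Gm10768* kept 3 counts over both endotoxemic libraries against 873 and 1429 counts in the controls, a ratio of 535 with a 95% counting interval of 183 to 2598. Its fitted log2 fold change of −8.96 was −8.03 without endotoxemic library 1 and, against 0 counts, −13.10 without endotoxemic library 2.

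Transcripts of plasma carrier proteins fell. Of 21 tested carriers and protease inhibitors, 16 were lower and 0 higher, with a median log2 fold change of −1.10. *Alb*, which encodes serum albumin, fell 2.21-fold (log2 fold change −1.14 ± 0.30, SE, adjusted p = 0.0139), and its libraries did not overlap. That call was lost without endotoxemic library 2 (−0.84, adjusted p = 0.0936) and without control library 1 (−0.76, adjusted p = 0.129). *Ttr*, the carrier of thyroxine and of the retinol-binding protein, fell from 13240 and 13774 CPM to 4610 and 5242 CPM. *Rbp4*, the retinol-binding protein itself, fell from 4105 and 4689 to 793 and 1015 CPM, the steepest fall of the list at −2.28. Both transcripts of the retinol-carrying complex were lower in each endotoxemic library than in each control library. *Sepp1*, the selenium carrier selenoprotein P, fell from 5612 and 5635 to 1466 and 1479 CPM, with an end that overlaps *Ccdc152* (log2 fold change −3.22) on the other strand. Without control library 1, the number of lower carriers was 10.

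Transcripts of acute-phase proteins rose. Of 17 tested members 16 were higher and 0 lower, with a median of 2.32. A further 15 members, among them the serum amyloid genes *Saa1* to *Saa4*, *Hp*, *Orm1* to *Orm3*, *Crp*, *Lbp* and *C3*, stood on rows out of order and were not measured. With those rows kept under their deposited symbols, 12 of the list's genes would be called lower. *Lcn2*, the siderophore-binding lipocalin (chr2:32384633-32388252), rose 242-fold from 22.7 and 15.4 to 3821 and 5342 CPM. *A2m*, a broad protease inhibitor, rose 440-fold from 0.624 and 0.0728 to 138 and 141 CPM. Its control libraries held 6 and 1 counts, and its log2 fold change of 8.78 was 10.69 without control library 1 and 7.78 without control library 2. The fibrinogen chains rose together: *Fgb* went from 13068 and 9475 to 54867 and 42474 CPM and *Fgg* from 2409 and 2730 to 12064 and 13621 CPM, and *Fga* rose by 2.29 on the log2 scale. *Hpx*, which binds free heme, rose 6.97-fold to 15084 and 19174 CPM. In both endotoxemic libraries the CPM of *Fgb* were above those of *Alb*, whereas in the controls the order was the opposite.

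Of 32 tested genes of coagulation 11 rose and 12 fell, with a median of −0.48. Besides the fibrinogen chains, the rising genes included receptors on the cell surface. *Plaur*, the receptor of urokinase, rose from 0 and 0.291 to 20.9 and 11.4 CPM. Its control libraries held 0 and 4 counts, and its log2 fold change was 5.74 without control library 1 and, against 0 counts and so not a measured fold, 10.36 without control library 2. The protein C receptor *Procr* and thrombomodulin, *Thbd*, rose by 5.73 and 2.75 on the log2 scale, with *Procr* at 6.79 without control library 1 and 5.01 without control library 2. The falling genes included factors secreted by hepatocytes. *F5* fell from 1183 and 1139 to 203 and 219 CPM, *Proc*, the anticoagulant protein C, from 398 and 470 to 124 and 157 CPM, and *F7*, *Proz* and *F13b* fell with log2 fold changes of −2.36, −2.15 and −1.88. *Serpind1*, heparin cofactor II, fell 6.74-fold. Its end overlaps that of *Pi4ka* on the other strand. With rows out of order kept, 19 genes would be called lower in place of 12. Of 29 tested complement genes 2 were higher and 12 lower, with a median of −0.46. The 2 higher genes were *Cfb*, factor B of the alternative pathway, and *Mbl1*. *Mbl1*, a mannose-binding lectin, rose from 171 and 168 to 402 and 400 CPM. The 12 lower complement genes became 4 without endotoxemic library 1, 5 without control library 1 and 6 without control library 2. *Cfb* was not called without any one of the 4 libraries (adjusted p = 0.102 to 0.194), which left 1 higher gene each time.

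The transcripts of drug-clearing enzymes were lower almost throughout. Of 50 tested cytochromes P450 of families 1 to 3 and their partners, 45 were lower and 1 was higher, with a median of −1.96. *Cyp2e1*, which oxidizes ethanol and acetaminophen (chr7:140763739-140774987), fell 12.2-fold from 3759 and 3508 to 330 and 265 CPM. *Cyp2a5*, the nicotine and coumarin hydroxylase, fell 26.8-fold from 1269 and 1282 to 45.6 and 49.7 CPM. *Cyp1a2*, the caffeine demethylase, fell from 928 and 1061 to 226 and 253 CPM. The endotoxemic libraries were thus far below the control libraries for each of these enzymes. The electron donors *Por*, *Cyb5a* and *Cyb5r3* of the same list fell with log2 fold changes of −1.34, −1.72 and −1.59. The only member that rose was *Cyp1b1*, an enzyme known mainly from cells other than hepatocytes, with 0 and 5 counts in the control and 20 and 25 in the endotoxemic libraries. Members with near-identical copies (the *Cyp2c*, *Cyp2d*, *Cyp3a*, *Ugt*, *Sult2a*, *Gstm*, *Mup*, *Serpina1* and *Serpina3* families, and in later lists the *Gbp*, *Oas*, *Slfn*, *H2-Q* and globin genes) can share reads, so the values of single copies are uncertain.

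Conjugation enzymes, which attach glucuronate, sulfate or glutathione, followed with 48 of 62 tested genes lower and 2 higher, at a median of −1.68. *Gstm1*, a glutathione transferase, fell from 1745 and 2015 to 395 and 478 CPM. *Sult2a3*, a hydroxysteroid sulfotransferase, had 78 and 108 counts in the controls and 1 and 0 in the endotoxemic libraries, a ratio of 130 with a counting interval of 23 to 5153. Its fitted log2 fold change of −6.77 was −5.92 without endotoxemic library 2 and, against 0 counts, −9.50 without endotoxemic library 1. *Nnmt*, which methylates nicotinamide, rose 3.81-fold from 213 and 212 to 758 and 863 CPM. The second rise, of *Ugt2b38*, was not called without endotoxemic library 1 (log2 fold change 1.51, adjusted p = 0.0556), which left 1 higher gene.

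Transcripts of carriers on both faces of the hepatocyte fell. Of 51 tested uptake and export carriers 30 were lower and 4 higher, with a median of −1.96. *Slc10a1*, the sodium-dependent bile acid importer of the blood side (chr12:80953183-80968705), fell 17.0-fold from 482 and 536 to 25.5 and 34.3 CPM. *Abcb11*, the bile salt export pump of the bile side, fell 6.39-fold from 383 and 397 to 58.6 and 63.4 CPM. *Abcc2*, which exports conjugated bilirubin, fell 25.9-fold from 304 and 319 to 10.9 and 13.2 CPM. Import and export transcripts were thus lower together. Among the 4 carriers that rose, *Slco3a1* went from 8.63 and 5.90 to 64.6 and 57.0 CPM and *Abca1*, which loads cholesterol onto apolipoprotein A-I, from 66.7 and 102 to 336 and 406 CPM. The other two were *Abcc1*, which was not called without any one of the libraries (adjusted p = 0.0832 to 0.22), and *Abcc5*, which was called only without endotoxemic library 1. Only 2 carriers were higher without endotoxemic library 2, control library 1 or control library 2.

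Transcripts of bile acid synthesis included some deep falls. Of 22 tested genes 15 were lower and 1 higher, with a median of −1.66. *Cyp7a1*, the rate-limiting enzyme of the classic pathway (chr4:6265612-6275633), fell 127-fold from 67.1 and 76.3 to 0.618 and 0.487 CPM. *Cyp8b1*, which makes cholic acid possible, fell 49.2-fold from 236 and 165 to 5.69 and 2.44 CPM, a log2 fold change of −5.62 that was −6.37 without endotoxemic library 1. *Nr0b2*, the receptor SHP that represses *Cyp7a1* when bile acids are plentiful, had 366 and 611 counts in control livers and 0 and 2 in endotoxemic livers, a ratio of 341 with a counting interval of 94.1 to 2818. Its fitted log2 fold change of −8.26 was −7.36 without endotoxemic library 1 and, against 0 counts, −11.87 without endotoxemic library 2. The repressor and its target enzyme were therefore low in the same libraries. *Klb*, the co-receptor for Fgf15, was lower by 5.23 on the log2 scale. *Ch25h*, which makes the signaling molecule 25-hydroxycholesterol and is strongly interferon-induced in macrophages, was the member that rose, from 0 and 0.437 to 67.0 and 44.2 CPM. Its control libraries held 0 and 6 counts, and its log2 fold change was 6.95 without control library 1 and, against 0 counts, 12.14 without control library 2.

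Transcripts for releasing glucose fell. Of 33 tested genes of glucose output and glycogen 25 were lower and 1 higher, at a median of −1.81. *G6pc*, glucose-6-phosphatase, the last step before glucose leaves the cell (chr11:101367561-101377903), fell 292-fold from 698 and 632 to 2.10 and 2.44 CPM. *Pck1*, the first committed step of gluconeogenesis, fell 26.3-fold from 2901 and 3619 to 115 and 133 CPM. *Slc2a2* and *Slc37a4*, the carriers that move glucose and glucose-6-phosphate, fell with log2 fold changes of −6.37 and −3.56. *Ppp1r3g*, which targets a phosphatase to glycogen, fell from 86.4 and 84.1 to 0.866 and 0.487 CPM, and glycogen synthase *Gys2* and glycogen phosphorylase *Pygl* fell by 3.58 and 2.12. *Fbp1*, fructose bisphosphatase, and *Pcx*, pyruvate carboxylase, had log2 fold changes of 0.44 and 0.08 that did not pass the test.

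Glycolysis had no single direction, with 13 of 41 tested genes higher, 13 lower and a median of 0.08. The median was negative, at −0.18, when at least 10 counts were required in every library. *Pdk2*, which restrains pyruvate dehydrogenase, fell with a log2 fold change of −5.22, or −6.26 without endotoxemic library 2. *Pklr*, the pyruvate kinase of liver, had a log2 fold change of −2.06 and was not called without endotoxemic library 1 (adjusted p = 0.06) or control library 2 (adjusted p = 0.0669). The hexokinases *Hk1*, *Hk2* and *Hk3* rose by 2.73, 3.33 and 2.67 on the log2 scale, with *Hk1* at 3.38 and *Hk3* at 3.88 without control library 2, and *Pkm*, the pyruvate kinase of most other tissues, rose by 3.36. *Pfkfb3*, which makes the activator of phosphofructokinase, rose 35.4-fold from 6.86 and 6.40 to 273 and 196 CPM. *Slc16a3*, the lactate exporter, had 2 and 1 counts in the controls and 159 and 147 in the endotoxemic libraries, a ratio of 146 with a counting interval of 49.6 to 713. Its fitted log2 fold change of 7.06 was 7.80 without control library 1 and 6.42 without control library 2. The 13 lower genes became 8 without endotoxemic library 1.

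Of 17 tested genes of the urea cycle and ammonia handling 13 were lower and 1 higher, with a median of −1.28. *Cps1*, the entry of ammonia into the cycle, fell 3.88-fold from 1160 and 1382 to 316 and 339 CPM (adjusted p = 0.0076). Without endotoxemic library 1 it stood at −1.93 with an adjusted p of 0.0535, and 8 genes of the list were lower. *Otc* had a log2 fold change of −1.16 and was not called without endotoxemic library 1 (adjusted p = 0.0539) or control library 2 (adjusted p = 0.059), and *Ass1* was on a row out of order. *Car5a*, the mitochondrial carbonic anhydrase that supplies bicarbonate to *Cps1*, fell from 37.2 and 46.7 to 0.618 and 1.46 CPM, a log2 fold change of −5.32 that was −6.09 without endotoxemic library 2. *Slc25a13*, the aspartate carrier of mitochondria, fell from 238 and 257 to 21.0 and 15.2 CPM. The liver-type glutaminase *Gls2* fell by 2.54.

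Genes of amino acid breakdown were also lower, with 56 of 66 tested genes lower and 1 higher, at a median of −1.78. *Prodh*, proline dehydrogenase, fell from 96.6 and 121 to 4.82 and 8.40 CPM, and *Etnppl* from 173 and 201 to 8.66 and 12.7 CPM. Enzymes for tryptophan (*Kynu*, *Ido2*), histidine (*Hal*), glycine (*Gldc*) and branched chains (*Bckdha*, *Dbt*) were among the others that fell, by 1.64 to 3.45 on the log2 scale. *Tat*, the glucocorticoid-induced tyrosine aminotransferase, went from 455 and 474 CPM to 579 in one endotoxemic library and 207 in the other, so that its groups overlapped (adjusted p = 0.763). *Sdsl*, a serine dehydratase-like enzyme, was the only member that rose, from 6.03 and 7.57 to 51.5 and 61.9 CPM.

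**Figure D3:**
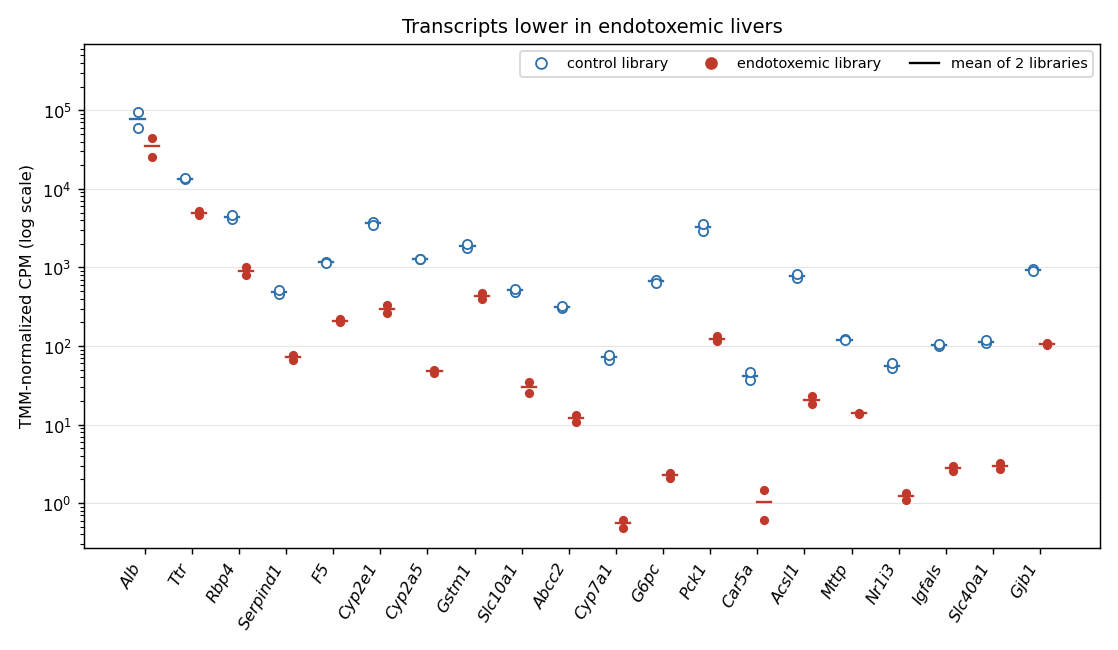
TMM-normalized CPM of 20 transcripts that were lower in endotoxemic livers, on a log scale, with each library as a point (open blue, control; filled red, endotoxemic) and the mean of the 2 libraries as a line. The genes shown were picked among those that passed the test without overlap of the groups. On 38.4% of all rows tested the libraries did not overlap in this direction. Fitted fold sizes run from 2.21 for *Alb* to 292 for *G6pc*.

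Of 63 tested genes of fatty acid oxidation and ketogenesis 53 were lower and 2 higher, with a median of −1.46. *Cpt1a*, the gate for fatty acids into mitochondria, fell 3.07-fold from 152 and 168 to 55.3 and 49.1 CPM. *Acsl1*, which activates fatty acids with coenzyme A, fell 38.1-fold from 744 and 819 to 18.2 and 22.8 CPM. *Ppara*, the fasting-activated receptor for this program, was lower by 4.47 on the log2 scale. *Plin2*, the coat protein of lipid droplets, rose 2.11-fold from 332 and 299 to 689 and 642 CPM. The other rise, of *Cyp4a12a*, was not called without either endotoxemic library (adjusted p = 0.162 and 0.0749) or without control library 2 (adjusted p = 0.2), which left 1 higher gene.

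Of 32 tested genes of fatty acid and triglyceride synthesis 21 were lower and 3 higher, with a median of −1.49. *Srebf1*, the regulator of lipogenesis, fell from 70.4 and 91.2 to 15.6 and 9.50 CPM, *Lpin2* from 163 and 170 to 17.2 and 11.9 CPM and *Acaca*, acetyl-CoA carboxylase, by 2.33 on the log2 scale. *Fasn*, fatty acid synthase, was at 234 and 217 against 134 and 129 CPM and missed the threshold (−0.78 ± 0.42, adjusted p = 0.17), which it passed without the low-count filter (−0.77, adjusted p = 0.00372) and in a fit of the 4 libraries alone (−0.80, adjusted p = 0.000462). *Scd1*, the stearoyl-CoA desaturase, was at 716 and 881 against 920 and 1350 CPM (adjusted p = 0.4, or 0.0372 in a fit of the 4 libraries alone). *Cidec*, which fuses lipid droplets, rose from 2.70 and 0.437 to 15.3 and 17.2 CPM, a log2 fold change of 3.46 that was 5.18 without control library 1 and 2.59 without control library 2. Only 1 gene of the list was higher without control library 2.

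Of 31 tested genes of cholesterol synthesis and uptake 13 were lower and 4 higher, with a median of −0.34. *Sqle*, squalene epoxidase, rose from 41.7 and 49.4 to 132 and 126 CPM. *Npc1*, which lets cholesterol out of lysosomes, fell from 144 and 134 to 9.65 and 11.4 CPM. The 4 higher genes became 7 when libraries were scaled by their totals alone, 2 without either endotoxemic library and 1 without either control library. The 13 lower genes became 8 without control library 1.

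Apolipoproteins and lipoprotein remodelling had 21 of 29 tested genes lower and 1 higher, with a median of −0.98. *Mttp*, which loads lipid onto apolipoprotein B, fell 8.65-fold from 122 and 119 to 13.7 and 14.0 CPM. *Vldlr* fell from 21.8 and 27.2 to 1.36 and 1.22 CPM. *Apoe* fell 2.12-fold from 37859 and 35254 to 16933 and 17509 CPM. *Apob* was at 256 and 291 against 192 and 224 CPM and was not called (adjusted p = 0.221, or 0.0329 in a fit of the 4 libraries alone). *Apoa1*, the main protein of high-density lipoprotein, fell 1.97-fold, a call that was lost without endotoxemic library 2 (adjusted p = 0.0512) and without control library 1 (adjusted p = 0.0538). Without control library 1, 13 genes were lower, and the 1 higher gene, *Apobec1*, was not called without any one of the libraries (adjusted p = 0.139 to 0.177) or by DESeq2 (adjusted p = 0.0551).

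Many of these enzymes are under nuclear receptors, and their transcripts were measured in the same libraries. Of 50 tested receptors and hepatocyte transcription factors 27 were lower and 4 higher, with a median of −1.02. *Nr1i3*, the drug sensor CAR (chr1:171213970-171220701), fell 45.6-fold from 52.3 and 60.5 to 1.36 and 1.10 CPM, with an end that overlaps *Tomm40l* (log2 fold change −4.15) on the other strand. The other drug sensor, *Nr1i2*, the partner *Rxra* and the coactivator *Ppargc1a* fell with log2 fold changes of −2.28, −1.39 and −2.82. *Hnf4a*, the master factor of hepatocyte identity, was at 315 and 324 against 282 and 302 CPM, a difference of −0.13 ± 0.19 that did not pass the test (adjusted p = 0.612) and was 0.01 with scaling by library totals. *Cebpd*, a factor of the acute-phase response, rose 9.62-fold from 20.8 and 23.7 to 186 and 243 CPM, and *Foxa3* rose from 59.7 and 44.0 to 194 and 145 CPM. The 27 lower genes became 17 without endotoxemic library 1.

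Clock transcripts differed between the groups, and the hour of collection is not given in the sources used here. Of 25 tested clock genes 12 were lower and 4 higher, with a median of −0.71. *Dbp*, an output of the clock that drives many liver enzymes, fell 37.0-fold from 60.3 and 54.2 to 1.61 and 1.46 CPM. *Nr1d1*, the repressor REV-ERBα, fell from 63.7 and 61.3 to 2.72 and 4.75 CPM. *Npas2*, of the activating arm that REV-ERBα represses, had 0 and 12 counts in the control and 65 and 99 in the endotoxemic libraries. Its log2 fold change of 4.34 was 3.51 without control library 1 and, against 0 counts, 9.68 without control library 2. *Arntl*, of the same arm, had a log2 fold change of 1.70 and was called without endotoxemic library 2 but not without any other library (adjusted p = 0.0646 to 0.177). The ends of *Dbp* and *Nr1d1* overlap genes of the opposite strand, *Sphk2* and *Thra*.

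Of 27 tested genes of growth hormone, Igf1 and insulin signaling 12 were lower and 4 higher, with a median of −0.57. *Igf1* fell 2.01-fold from 1077 and 1145 to 512 and 593 CPM. *Igfals*, which keeps Igf1 in the circulation, fell 37.0-fold from 99.0 and 106 to 2.97 and 2.56 CPM, and the receptor *Ghr* fell by 2.33 on the log2 scale. All 4 rises were of suppressors of cytokine signaling: *Socs1* went from 1.77 and 0.509 to 190 and 122 CPM and *Socs3* from 43.9 and 32.7 to 603 and 348 CPM, and the other two were *Socs2* and *Socs6*. *Socs1* had a log2 fold change of 7.19, which was 8.23 without control library 1 and 6.46 without control library 2. *Igfbp1* was higher in both endotoxemic libraries, at 1205 and 1843 against 778 and 1064 CPM, without passing the test (adjusted p = 0.325, or 0.00404 without the low-count filter and 0.00927 in a fit of the 4 libraries alone). Without control library 1 the 4 rises became 2, since *Socs2* (adjusted p = 0.0971) and *Socs6* (adjusted p = 0.115) were not called. Neither was called without control library 2 (adjusted p = 0.0672 and 0.0712), nor *Socs6* without endotoxemic library 1 (adjusted p = 0.116).

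Of 36 tested iron genes 14 were lower and 7, a share close to that of all rows, were higher, with a median of −0.21. *Slc40a1*, ferroportin, the only known iron exporter of cells, fell 37.8-fold from 110 and 118 to 2.72 and 3.29 CPM. *Hfe2*, the hemojuvelin that hepcidin induction needs, fell from 87.7 and 88.9 to 2.23 and 4.87 CPM, a log2 fold change of −4.63 that was −5.33 without endotoxemic library 2. *Hamp*, hepcidin itself, was at 624 and 779 against 1033 and 1137 CPM, so that its groups did not overlap but the difference missed the threshold (0.63 ± 0.26, adjusted p = 0.0839). It passed with libraries scaled by their totals alone (0.77, adjusted p = 0.0334), without the low-count filter (0.63, adjusted p = 0.0165) and in a fit of the 4 libraries alone (0.61, adjusted p = 0.0037). *Steap4*, a metalloreductase, rose from 23.1 and 31.3 to 1566 and 1365 CPM. Of 24 tested metallothioneins and zinc carriers 12 were higher and 4 lower, with a median of 0.60. *Mt1* rose 11.9-fold from 1832 and 1757 to 21276 and 21592 CPM (chr8:94179082-94180327), and *Mt2* rose 9.09-fold to 10186 and 11260 CPM. The zinc importers *Slc39a10* and *Slc39a14* rose by 3.97 and 2.41 on the log2 scale. The 4 lower zinc genes became 1 without either endotoxemic library or control library 2, 2 without control library 1 and 2 when libraries were scaled by their totals.

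Interferon-induced antiviral genes rose almost throughout, with 71 of 77 tested members higher, 0 lower and a median of 2.61. *Isg15*, a ubiquitin-like modifier, rose 42.7-fold from 47.9 and 43.8 to 2050 and 1866 CPM (adjusted p = 3.65e-05). *Ifit1*, which binds foreign 5′ RNA ends, rose 9.29-fold from 33.3 and 37.8 to 328 and 332 CPM. *Slfn4*, a Schlafen gene of myeloid cells, had 0 counts in both controls and 383 and 355 in the endotoxemic libraries, at least 171-fold more. *Stat2*, a part of the interferon-activated transcription factor, rose by 1.36 on the log2 scale, and *Irf7* by 3.53.

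The genes induced by interferon-γ and those of antigen presentation followed, with 34 of 47 tested members higher, 1 lower and a median of 2.45. *Gbp2*, a guanylate-binding GTPase that attacks vacuoles of microbes, rose 146-fold from 6.96 and 6.40 to 940 and 1016 CPM. *Gm12250*, an immunity-related GTPase, rose from 1.98 and 2.91 to 267 and 320 CPM. The peptide carrier *Tap1* and the immunoproteasome subunits *Psmb8*, *Psmb9* and *Psmb10* rose by 2.26 to 3.70 on the log2 scale. *Tap2*, the partner of *Tap1*, had a log2 fold change of 1.95 and was called without endotoxemic library 2 but not without any other library (adjusted p = 0.0733 to 0.391). *B2m*, the light chain of MHC class I, overlapped between the groups at 3713 and 2877 against 4125 and 2771 CPM (adjusted p = 0.873). Class II genes *Cd74*, *H2-Aa*, *H2-Ab1* and *H2-Eb1* had log2 fold changes of −0.21 to 0.46 and were not called. The only fall, of *H2-Q1*, was not called without any one of the libraries (adjusted p = 0.0599 to 0.225) or with scaling by library totals (adjusted p = 0.0524).

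The promoters of 3 of these genes are printed because they hold the letters GAAANNGAAA, the core of the interferon-stimulated response element to which the interferon-activated factors bind. The 250 bases before the start were taken from RefSeq on GRCm38.p6 and searched on both strands, and capitals mark the matches, which read TTTCNNTTTC where the motif lies on the other strand. The *Isg15* sequence (chr4:156200819-156201068, minus strand) holds 3 overlapping matches, the *Ifit1* sequence (chr19:34640639-34640888, plus strand) 2 and the *Gbp2* sequence (chr3:142620413-142620662, plus strand) 1.
Isg15: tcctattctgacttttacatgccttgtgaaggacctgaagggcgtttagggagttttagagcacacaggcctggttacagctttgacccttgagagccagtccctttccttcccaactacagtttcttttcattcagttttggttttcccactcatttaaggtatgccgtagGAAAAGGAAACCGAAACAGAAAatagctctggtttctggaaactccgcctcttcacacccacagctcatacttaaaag
Ifit1: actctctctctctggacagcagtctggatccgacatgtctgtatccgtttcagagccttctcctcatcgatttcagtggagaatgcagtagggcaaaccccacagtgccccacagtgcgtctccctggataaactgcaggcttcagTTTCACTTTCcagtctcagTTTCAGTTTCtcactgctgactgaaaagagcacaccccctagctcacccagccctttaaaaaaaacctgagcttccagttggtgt
Gbp2: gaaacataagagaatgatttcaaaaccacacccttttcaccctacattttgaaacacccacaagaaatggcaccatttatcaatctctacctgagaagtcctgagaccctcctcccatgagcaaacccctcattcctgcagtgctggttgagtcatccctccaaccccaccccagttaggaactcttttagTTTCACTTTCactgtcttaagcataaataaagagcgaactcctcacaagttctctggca

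Of the 59 antiviral genes with a promoter in the RefSeq table, out of 77 tested, 23 held the motif (39.0%). Of 33 such genes of the interferon-γ and antigen presentation list, out of 47 tested, 12 did (36.4%). Among all promoters of the same length the motif was present in 821 of 27025 (3.04%), and among tested genes with a promoter in 255 of 9315 (2.74%). The promoter of *Slfn4* had 0 matches, which says only that these letters are not in this window.

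**Figure D4:**
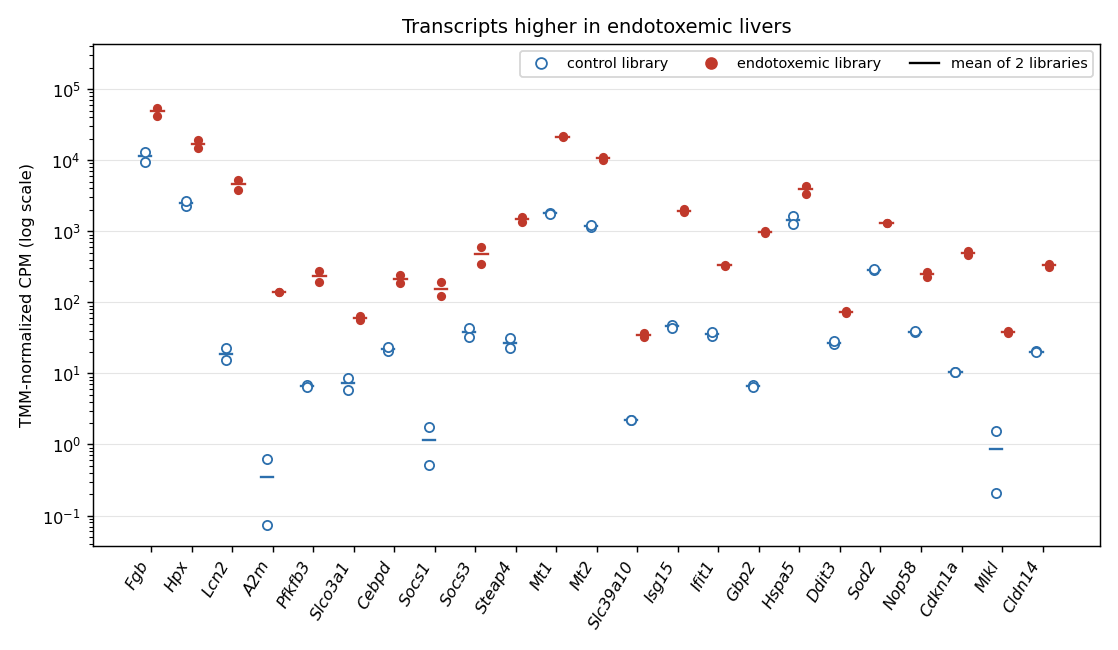
TMM-normalized CPM of 23 transcripts that were higher in endotoxemic livers, on a log scale, with each library as a point (open blue, control; filled red, endotoxemic) and the mean of the 2 libraries as a line. The genes shown were picked among those that passed the test without overlap of the groups. On 38.3% of all rows tested the libraries did not overlap in this direction. Fitted fold sizes run from 2.68 for *Hspa5* and *Ddit3* to 440 for *A2m*.

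Genes of the unfolded protein response, which widens the capacity of the endoplasmic reticulum, were mostly higher, with 24 of 45 tested members higher, 2 lower and a median of 0.84. *Hspa5*, the chaperone BiP, rose from 1661 and 1248 to 4397 and 3386 CPM. *Ddit3*, the factor CHOP, rose from 26 and 28.4 to 70.7 and 75 CPM, and *Atf3*, a target of its stress arm, rose by 4.02 on the log2 scale, or 4.64 without control library 2. *Asns*, which makes asparagine, had 0 and 8 counts in the control and 119 and 135 in the endotoxemic libraries. Its log2 fold change of 5.50 was 4.71 without control library 1 and, against 0 counts, 10.31 without control library 2. *Herpud1*, a factor of protein degradation, went the other way, from 420 and 502 to 118 and 135 CPM. The 24 higher genes became 15 without control library 1, and the second fall, of *Crebrf*, was not called without endotoxemic library 1 (adjusted p = 0.0635) or control library 2 (adjusted p = 0.0512).

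Of 38 tested genes of redox defence 16 were lower and 10 higher, with a median of −0.52. *Sod2*, the superoxide dismutase of mitochondria, rose 4.58-fold from 283 and 291 to 1315 CPM in both endotoxemic libraries. *Gclc* and *Gclm*, the subunits of the enzyme that starts glutathione synthesis, fell by 1.69 and 2.41, catalase, *Cat*, by 2.18 and *Nqo1* from 10.6 and 7.13 to 1.61 and 2.07 CPM. The 10 rises became 4 and 2 without endotoxemic libraries 1 and 2, and 3 and 5 without control libraries 1 and 2, and *Hmox1* was on a row out of order.

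Growth-arrest and immediate-early genes had 24 of 45 tested members higher and 4 lower, with a median of 1.03. *Cdkn1a*, the cell cycle inhibitor p21, rose 47.4-fold from 10.4 and 10.4 to 522 and 466 CPM. *Ier3* rose from 2.39 and 2.40 to 399 and 331 CPM. *Fos*, *Myc* and *Trp53* had log2 fold changes of 1.04, 0.68 and 0.45 that did not pass. Of 35 tested genes of cell death 18 were higher and 2 lower. *Mlkl*, the executioner of necroptosis, rose 40.3-fold from 0.208 and 1.53 to 39.8 and 37.2 CPM. Its control libraries held 2 and 21 counts, and its log2 fold change of 5.33 was 4.65 without control library 1 and 7.46 without control library 2. *Gsdmd*, the pore former of pyroptosis, *Apaf1* and *Bax* rose by 2.08, 4.12 and 2.58 on the log2 scale. *Casp1*, *Casp4*, *Nlrp3* and 12 more members of that list were on rows out of order. The 18 higher genes became 11 without endotoxemic library 2. The 2 lower ones, *Bok* and *Casp9*, became 1 without endotoxemic library 1 and 0 without control library 1.

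Of 37 tested cell division genes 7 were higher, a share close to that of all rows, and 4 were lower, with a median of 0.21. *Mki67*, the usual marker of cycling cells, was at 0.832 and 1.16 against 4.08 and 2.07 CPM and was not called (adjusted p = 0.0669, or 0.0452 in a fit of the 4 libraries alone). *Gmnn*, which blocks repeated replication, fell from 9.98 and 13.4 to 1.86 and 1.46 CPM. The 7 higher genes became 1 without either endotoxemic library or control library 1 and 3 without control library 2, and the 4 lower genes became 2 without any one of the libraries.

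Of 82 tested nucleolar genes 46 were higher and 1 lower, with a median of 0.84. *Nop58*, a core protein of small nucleolar particles, rose 6.45-fold from 37.9 and 39.7 to 231 and 270 CPM, and *Heatr1* rose from 10.2 and 14.0 to 135 and 122 CPM. The single fall was of *Nop9*, from 538 and 502 to 115 and 97.5 CPM. The end of *Nop9* (chr14:55745693-55755500) overlaps *Cideb*, a lipid droplet gene on the other strand with a log2 fold change of −2.51, and reads of the pair cannot be told apart without strand. The 46 rises became 28, 25, 26 and 28 without endotoxemic library 1, endotoxemic library 2, control library 1 and control library 2. Of 80 cytosolic ribosomal protein genes 15 were higher, a share close to that of all rows, and 0 lower, with a median of 0.31. The 15 became 25 with scaling by library totals, 28 in a fit of the 4 libraries alone and 2 without any one of the libraries. *Rps20* rose 2.03-fold from 395 and 366 to 775 and 773 CPM.

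Of 78 genes for subunits of oxidative phosphorylation 34 were lower and 1 higher, with small sizes and a median of −0.47. *Ndufb10*, a subunit of complex I, fell 2.80-fold from 173 and 173 to 64.7 and 58.9 CPM, whereas *Cox4i1* was at 497 and 614 against 353 and 453 CPM and was not called (adjusted p = 0.0992, or 0.0251 in a fit of the 4 libraries alone). The 34 falls became 20 with scaling by library totals, 13 and 7 without endotoxemic libraries 1 and 2, and 7 and 14 without control libraries 1 and 2. The 1 rise, of *Cycs*, was not called without any one of the libraries (adjusted p = 0.0633 to 0.163). Of 45 proteasome genes 10 were higher, a share close to that of all rows, and 1 was lower. *Psmd10* rose from 17.5 and 15.9 to 46.5 and 61.9 CPM. The 10 rises became 3 without endotoxemic library 2 and 2 without any other library, and the fall of *Psme4* was not called without any one of the libraries (adjusted p = 0.0895 to 0.153).

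Of 31 tested junction genes 7 were higher, a share close to that of all rows, and 10 were lower. *Gjb1*, the main gap junction protein of hepatocytes, fell 8.67-fold from 963 and 890 to 109 and 104 CPM. The cadherins *Cdh1* and *Cdh2* and the desmosomal *Dsp* and *Dsc2* fell by 2.16 to 3.76 on the log2 scale. *Cldn14*, a tight junction claudin, rose 16.3-fold from 20.4 and 20.1 to 342 and 317 CPM. The 7 rises became 4 without endotoxemic library 1 or control library 2.

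Endothelial activation genes rose, with 12 of 19 tested members higher, 0 lower and a median of 2.33. The median was 1.51 over the 11 members with at least 10 counts in every library. The largest rise of the list, 7.92 on the log2 scale, was of *Lcn2*, which is also counted among the acute-phase and iron genes. *Angpt2* and *Edn1*, the vessel-destabilizing ligand and the constrictor of this list, rose by 5.08 and 3.66 on the log2 scale. *Adamts4*, a matrix protease, had 1 and 0 counts in the controls and 82 and 116 in the endotoxemic libraries, a ratio of 284 with a counting interval of 50.4 to 11265. Its fitted log2 fold change of 7.79 was 6.71 without control library 2 and, against 0 counts, 10.06 without control library 1. The adhesion genes *Sele*, *Selp*, *Icam1* and *Vcam1* were on rows out of order. Markers of sinusoidal endothelium fell at the same time, with 12 of 21 tested lower, 2 higher and a median of −1.21. *Clec4g*, a lectin of these cells, fell 11-fold from 80.8 and 93.2 to 6.80 and 9.01 CPM, and *Kdr*, the receptor of vascular endothelial growth factor, fell with a log2 fold change of −5.33, or −6.20 without endotoxemic library 2. *Lyve1*, a hyaluronan receptor of the same cells, rose 8.33-fold from 55.4 and 39.7 to 408 and 384 CPM (chr7:110850607-110863239). *Stab2* and *Pecam1* had log2 fold changes of −0.69 and 0.61 and were not called, though *Stab2* was in a fit of the 4 libraries alone (adjusted p = 0.0173). Falling and rising markers of this cell type were thus found in the same livers.

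**Figure D5:**
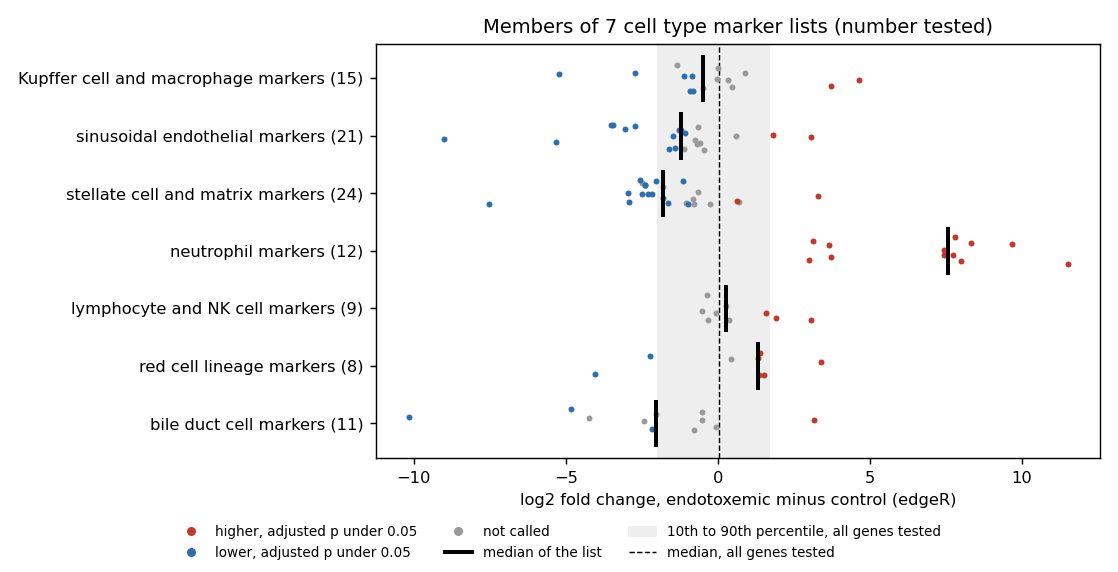
Log2 fold change (endotoxemic minus control) of each tested member of 7 cell type marker lists, with the number of members tested in brackets. Red and blue points passed the test, black bars are medians, the dashed line is the median of all rows tested (0.03) and the grey band runs from their 10th to their 90th percentile. Neutrophil markers lie to the right and stellate and sinusoidal markers mostly to the left. The farthest points on either side belong to genes with 0 or few counts in a group, whose fitted values are not measured folds.

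Stellate cell and matrix markers were mostly lower, with 14 of 24 tested genes lower, 2 higher and a median of −1.82. Over the 17 members with at least 10 counts in every library the median was −1.15. *Lrat*, which stores retinol as ester, fell 7.51-fold from 21.0 and 17.0 to 3.21 and 1.83 CPM. *Col1a1*, *Col1a2* and *Acta2* fell with log2 fold changes of −2.04, −1.81 and −2.56, while *Col4a1*, a collagen of basement membranes, rose 9.71-fold from 26.9 and 29.0 to 248 and 295 CPM. The summed level of the list was 790 and 813 CPM in control and 1012 and 1034 CPM in endotoxemic livers, so the sum was higher while the median was negative. The second rise, of *Dcn*, was not called without any one of the libraries (adjusted p = 0.102 to 0.169). Kupffer cell and macrophage markers had 6 of 15 tested genes lower and 2 higher. *Clec4f*, which marks Kupffer cells, fell 1.82-fold from 41.5 and 40.6 to 24.2 and 20.9 CPM, a call lost without any one of the libraries (adjusted p = 0.0534 to 0.0995). *Adgre1*, the F4/80 antigen, overlapped between the groups (adjusted p = 0.973), and *Ly6c2*, a marker of blood monocytes, rose from 0.312 and 1.09 to 12.7 and 25.3 CPM, a log2 fold change of 4.65 that was 5.88 without control library 2 and 4.06 without endotoxemic library 2. The 6 falls became 3 and 2 without endotoxemic libraries 1 and 2 and 2 without control library 1. The summed level was 483 and 497 CPM in control and 362 and 380 CPM in endotoxemic livers.

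The summed level of the tested neutrophil markers was 551 and 506 CPM in control and 6537 and 7081 CPM in endotoxemic livers. As 5 of them had 0 counts in the controls, the control sum came from the others, and abundant members weigh most in such sums. Of 25 such markers with a row, 7 were on rows out of order, 6 had too few counts and 12 were tested, and those 12 were higher. Their median log2 fold change was 7.59, or 3.76 with the 5 genes at 0 counts in a group set to their bound. They passed the low-count filter mostly through the endotoxemic libraries, where they are high. *Ngp*, a granule protein of young neutrophils, had 0 counts in both controls and 265 and 283 in the endotoxemic libraries. These were 32.77 and 34.45 CPM, a small part of the summed level. *S100a8* and *S100a9*, which are abundant in neutrophils, were on rows out of order. Of 8 tested red cell markers 5 were higher and 2 lower. Globin transcripts were higher, with *Hba-a1* at 4610 and 5270 against 1919 and 2025 CPM and *Hbb-bs* at 2169 and 2793 against 900 and 1005 CPM. The falls were of *Car1*, a carbonic anhydrase of red cells, and *Klf1*, a transcription factor of red cell precursors, with log2 fold changes of −4.04 and −2.24, and 1 of them was called without either endotoxemic library or control library 1. Of 23 lymphocyte and natural killer markers 14 had too few counts, and their sum was 13.8 and 8.88 CPM in control and 19.3 and 20.5 CPM in endotoxemic livers. Of the 9 tested 3 were higher, 1 without endotoxemic library 2 and 0 without any other library. Of 11 tested bile duct markers 3 were lower and 1 higher. *Sox9* rose from 11 and 8.73 to 83.6 and 90.7 CPM. *Krt19* had 19 and 30 counts in control and 0 and 1 in endotoxemic livers, and its call was lost without endotoxemic library 1 (adjusted p = 0.0874). *Bicc1*, another of the 3, was not called without any one of the libraries (adjusted p = 0.0563 to 0.12), and without endotoxemic library 1 only *Krt23* was lower. The part that blood cells have in the rises described here was not tested.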

How the data were processed

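Libraries were made from liver RNA with a 3′ kit, so that counts do not grow with gene length. The authors deposited whole-number counts per gene symbol, and their processing notes name Bowtie2, edgeR and mm10, while the counting program, its use of strand and versions are not given in the sources used here. The members and lists below were chosen with earlier results of these data known. Rows were placed by RefSeq positions on GRCm38, the longest run of rows in genome order held 22346 of 23134 placed rows, and rows more than 2 Mb off it were left out. The 6 distinct libraries were fitted together in edgeR 4.0.16 on R 4.3.3 (filterByExpr, TMM, quasi-likelihood test, Benjamini-Hochberg adjustment over all 12275 rows, 3 residual degrees of freedom), after a test of the scripts on simulated counts. The biological coefficient of variation was 0.237. Fold sizes are fitted values, bounds and ratios were computed from scaled counts, and intervals cover counting error only. Named genes were 1 or 2 genes preset for each list, up to 2 largest rises and falls of each list (1 for marker lists) and the 10 largest of all genes, among called genes without overlap and with a mean of at least 5 CPM in a group. Other genes were picked from the lists after their values were seen, and some named genes are not reported here. Of 207 named genes with GENCODE coordinates, 34 overlap another gene in their last 1000 bases, and their reads may be mixed. Alternatives were other filters and scalings, a 2-fold threshold, DESeq2 1.42.0, a replicate block, the 4 libraries alone and leaving out each library.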

Additional observations from a re-analysis of the deposited data

Results flagged for a closer look

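Signal appeared outside the comparison in the 2 libraries of mice given LPS and LGK974. The Y-linked RNA helicase *Ddx3y* had 1755 and 1392 counts there, and the Y-linked translation factor *Eif2s3y* had 323 and 190, against 0 in all control and endotoxemic libraries. Xist had 3 and 7 counts in the same 2 libraries. Sex-linked transcripts therefore separate the LGK974 libraries from the other 4, although all mice carry the same label of sex. The comparison of endotoxemic with control livers lies among the other 4 libraries.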

How the results depend on the processing

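The main counts were 2456 higher and 2724 lower genes. There were 1355 to 1529 higher and 1737 to 1839 lower genes with 1 library left out, and 2957 and 3332 in a fit of the 4 libraries alone. The cause of these moves was not tested. DESeq2 called 2471 and 2717, the test without a filter 2680 and 2944, and the fit with rows out of order kept 2595 and 2918. Scaling by library totals alone moved the median of all genes by 0.138 on the log2 scale and gave 2911 higher and 2368 lower genes. Whether replicate numbers pair the samples could not be decided, because each group holds only 2 distinct libraries. Deviations in the control libraries correlated with those in the endotoxemic libraries at 0.142. The fit with a replicate block called 2448 higher and 2716 lower genes. In the fit of the 4 libraries alone 12 of 198 named genes gained a call. Without the low-count filter 5 gained a call and 1 lost it. With at least a 2-fold change required besides the adjusted p, 12 lost their call. Further named genes lost their call with a library left out. No named gene that passed the test changed direction under the alternatives run. Of those that did not pass, *Tat*, *B2m*, *Psmd11* and *Adgre1* changed sign with 1 library left out, and *Adgre1* and *Hnf4a* under another scaling. The spread rests on 3 residual degrees of freedom, and a count of 0 in a library allows up to 3 counts.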
